A study of Mus musculus with 9 samples.

Results

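Fndc7, Alpk2 and Anks1b are 3 of the 54232 genes counted, chosen by their measured counts in the same 9 libraries, which were low in the cochlear ducts of WT embryos and far higher in those of Prdm16 cGT null embryos. Each was matched from its Ensembl gene to its symbol and had a count in every library, and 3 of 3 had enough reads to be tested. RNA was sequenced from 9 mouse embryos at E14.5, 3 WT (Prdm16 +/+), 3 Prdm16 cGT heterozygote (Prdm16 cGT/+) and 3 Prdm16 cGT null (Prdm16 cGT/cGT), with 1 library from both cochlear ducts of each embryo. The cGT allele is a gene trap carried in every cell of the embryo, the embryos of all 3 genotypes came from crosses of heterozygotes kept on FVB/NJ, and no group was treated. Bulk RNA cannot tell apart fewer cells of a type and less RNA per cell, and this holds for every level below. Since these values chose the 3 genes, their own levels are described without a test.

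PRDM16 is a zinc finger protein of the PR domain family that can activate or repress genes, depending on the partners it recruits. In the cochlear duct it marks the nuclei of Kölliker's organ, the transient epithelium beside the prosensory domain. None of the 3 genes has an established role there. Fndc7 encodes a protein built from fibronectin type III domains, a fold common in matrix and cell surface proteins, and its function is little known. Alpk2 encodes an atypical kinase of the alpha-kinase family that has mostly been studied in heart. Anks1b encodes AIDA-1, an adaptor with ankyrin repeats, SAM domains and a phosphotyrosine-binding domain, which is abundant at the postsynaptic density of neurons and is also found in nuclei.

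The 3 genes lie on 3 chromosomes, and none lies on chromosome 4, which holds Prdm16. In mm10, Anks1b (ENSMUSG00000058589) lies on chromosome 10 from 89873509 to 90973300 on the plus strand. It spans 1099.8 kb and has 14.5 kb of exon in 37 blocks, with 33 annotated transcripts. Counts per gene do not separate these transcripts, so a change in Anks1b cannot be assigned to 1 of its starts.

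Anks1b was the gene of the 3 with entries among the RefSeq promoter sequences (GRCm38.p6). These place 5 starts in it, and the 250 bases before the first and the second start are shown because they lie outside annotated exons and contrast in base composition. The window before the first start, chr10:89873259-89873508 on the plus strand, had a G+C content of 70.4% and 20 CpG pairs. The window before the second, chr10:90575477-90575726 on the plus strand, had 49.2% and 3. The median over all promoter windows of this length was 52.4%.
Anks1b start 1: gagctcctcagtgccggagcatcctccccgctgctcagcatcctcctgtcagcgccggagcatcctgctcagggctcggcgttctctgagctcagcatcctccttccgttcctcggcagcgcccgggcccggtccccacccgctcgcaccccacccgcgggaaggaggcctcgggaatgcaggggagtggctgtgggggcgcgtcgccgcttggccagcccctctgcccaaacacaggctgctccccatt
Anks1b start 2: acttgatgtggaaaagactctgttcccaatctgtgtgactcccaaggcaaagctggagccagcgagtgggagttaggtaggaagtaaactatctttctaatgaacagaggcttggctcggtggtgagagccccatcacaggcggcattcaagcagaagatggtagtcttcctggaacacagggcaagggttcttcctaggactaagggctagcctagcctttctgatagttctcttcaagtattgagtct

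Both windows were searched on both strands for AGATAA and GATGAG, which are cores of the sequences known for the zinc fingers of EVI1, the product of Mecom and the closest relative of PRDM16. Neither motif occurred before the first or the second start, nor before the fourth or the fifth. Before the third start, where 7 of the 33 annotated transcripts begin within 100 bases, AGATAA occurred once, from 123 to 118 bases before the start on the minus strand. GATGAG occurred at 2 places there, from 219 to 214 bases before the start on the minus strand and from 22 to 17 bases on the plus strand. The motif matches did not overlap. Among 32851 promoter windows of 250 bases, 9.99% held AGATAA and 10.1% held GATGAG. The 3 stretches of 30 bases are given with the motif in capitals as it reads on the plus strand of chromosome 10, since they are the matches found in the 5 windows. A match is a string of letters and was not tested as a site.
AGATAA, chr10:90576556-90576585: aaaaaatctgccTTATCTgatggctattat
GATGAG, chr10:90576460-90576489: gttttgactgctCTCATCattcaagattga
GATGAG, chr10:90576657-90576686: gagctgcatactGATGAGtgtaggagtact

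Total counts were between 24095322 and 30819118 per library, and a count of 3, taken as the floor, was between 0.0969 and 0.126 CPM (the count scaled to the size of its library after TMM normalization), covering counting error only. Prdm16 was at 184 to 225 CPM in WT, 123 to 151 CPM in heterozygote and 19.1 to 27.4 CPM in null libraries, so no library went against its labelled genotype. Otic epithelium markers (Epcam, Cdh1, Pax2 and Sox10) summed to 1920 to 2340 CPM in the 9 libraries. The 3 libraries null 3, WT 2 and WT 1 stood apart by RNA of other tissue, since 6 mesenchyme markers summed to 1260, 825 and 412 CPM in them and to 28.2 to 94.8 CPM in the other 6. In null 3, 4 cartilage markers summed to 11400 CPM, against 4800 to 5780 CPM elsewhere.

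Fndc7 (ENSMUSG00000045326) lies on chromosome 3 from 108853678 to 108890008 on the minus strand in mm10, with 6.69 kb of exon in 14 blocks. Its RNA was scarce in WT and well detected in null cochlear ducts. Its raw counts were 20, 11 and 12 in WT embryos 1, 2 and 3, and 706, 729 and 583 in null embryos 1, 2 and 3. This was 0.741, 0.431 and 0.407 CPM in WT and 29.1, 23.5 and 24.4 CPM in null. Every null library was far above every WT library, and the lowest null value was 31.8 times the highest WT value. Libraries were separated in this way, with null higher, for 10.1% of tested genes. The means were 0.527 ± 0.186 CPM in WT and 25.7 ± 3.01 CPM in null embryos (SD, n = 3 each). In edgeR this was 48.4-fold, or 5.60 ± 0.248 on the log2 scale (SE). Among the genes called higher in null than WT, this fold ranked 2 of 158. In heterozygotes Fndc7 was at 2.33, 1.62 and 1.65 CPM (counts of 58, 45 and 45). The 3 heterozygote libraries lay above the 3 WT libraries and well below the 3 null libraries.

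Alpk2 (ENSMUSG00000032845) lies on chromosome 18 from 65265529 to 65394066 on the minus strand in mm10, with 7.96 kb of exon in 15 blocks. Its RNA was present in WT, higher in heterozygotes and highest in null embryos. Its counts were 96, 84 and 115 in WT, 172, 162 and 229 in heterozygotes and 474, 620 and 427 in null embryos. The corresponding levels were 3.56, 3.30 and 3.90 CPM in WT, 6.91, 5.84 and 8.38 CPM in heterozygotes and 19.6, 20 and 17.9 CPM in null embryos. The ranges of the 3 genotypes did not overlap. The null mean was 19.2 ± 1.12 CPM against 3.58 ± 0.304 CPM in WT (SD, n = 3 each). This was 5.32-fold, or 2.41 ± 0.141 on the log2 scale (SE). The lowest null library was 4.59 times the highest WT library.

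Anks1b RNA was higher in null embryos, while heterozygotes overlapped WT. Its counts were 61, 57 and 68 in WT, 44, 65 and 40 in heterozygotes and 253, 302 and 287 in null embryos. The levels were 2.26, 2.24 and 2.31 CPM in WT, 1.77, 2.34 and 1.46 CPM in heterozygotes and 10.4, 9.75 and 12 CPM in null embryos. The WT and heterozygote ranges overlapped, and both lay below every null library. The null mean was 10.7 ± 1.17 CPM against 2.27 ± 0.0361 CPM in WT (SD, n = 3 each). This was 4.71-fold, or 2.24 ± 0.169 on the log2 scale (SE). The lowest null library was 4.23 times the highest WT library.

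**Figure D1:**
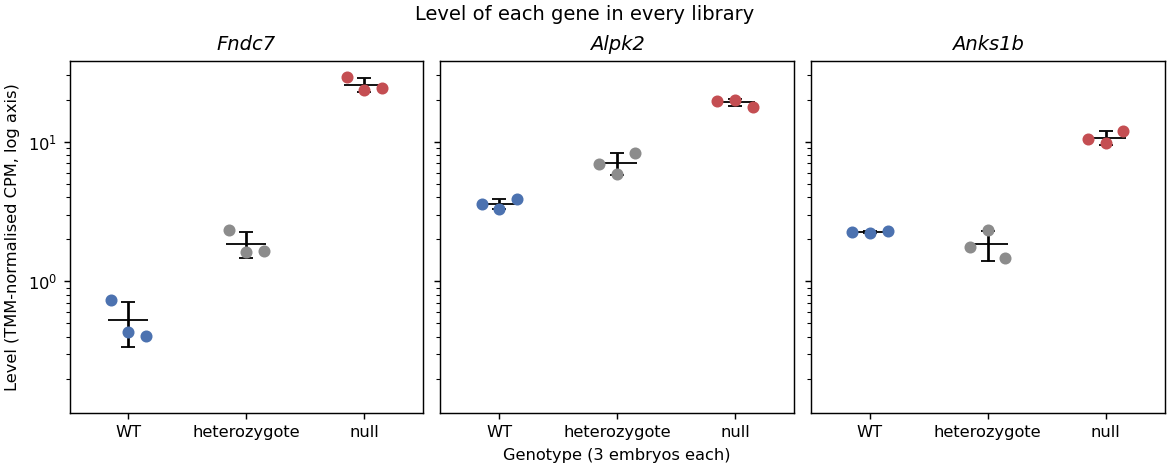
Level of Fndc7, Alpk2 and Anks1b in each of 9 libraries (TMM-normalised CPM on a log axis), with 3 embryos per genotype as points in the order 1, 2 and 3, the mean as a horizontal bar and the SD as the error bar. The null libraries lie above all others for each gene, and the heterozygote libraries lie above WT for Fndc7 and Alpk2 but not for Anks1b.

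All 3 genes were among the 158 of 17168 tested genes called higher in null than WT (0.92%) at an edgeR adjusted p under 0.05 and a log2 fold change over 0.5. Because this contrast chose them, nothing is read from that count. By size of rise, called or not, Fndc7 ranked 4, Alpk2 47 and Anks1b 52 among all tested genes. In the plot of fold change against WT level, the 3 genes stood at the low end of expression. Per kb of exon, the WT level was 0.45 ± 0.0382 CPM for Alpk2, 0.156 ± 0.00249 CPM for Anks1b and 0.0787 ± 0.0278 CPM for Fndc7 (SD, n = 3). These levels were higher than those of 15.2%, 4.7% and 1.4% of 17797 genes. In null embryos the order was different, with 3.84 ± 0.45 CPM per kb for Fndc7, 2.41 ± 0.141 for Alpk2 and 0.741 ± 0.0804 for Anks1b (SD, n = 3), which placed them above 46.9%, 38.7% and 21.6% of the same genes. Fndc7 thus passed from the lowest to the highest of the 3, and within each genotype the 3 ranges per kb did not overlap. A level per kb rests on the summed length of all annotated exons and would be higher if a shorter transcript made up the RNA.

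**Figure D2:**
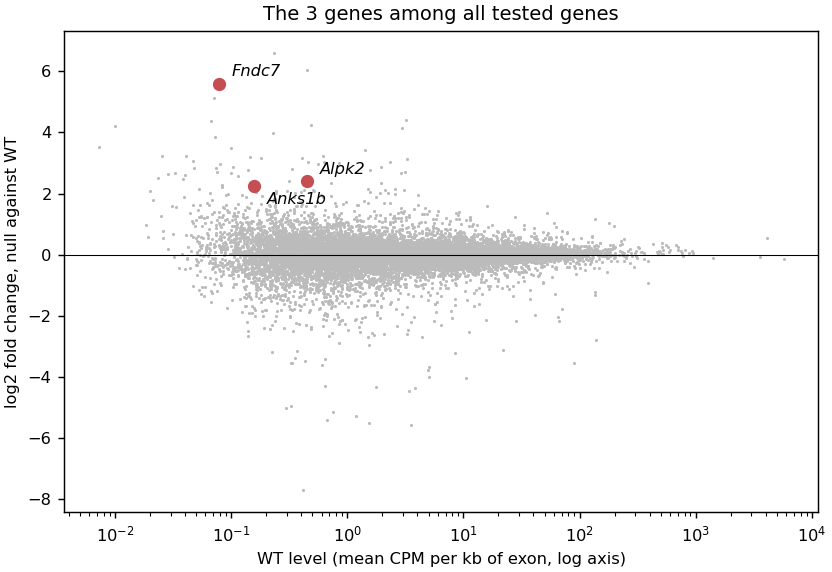
log2 fold change between null and WT (edgeR) against the mean WT level in CPM per kb of exon (log axis) for each tested gene with reads in WT, with Fndc7, Alpk2 and Anks1b in red. The 3 genes sit at WT levels of 0.0787, 0.45 and 0.156 CPM per kb, with fold changes of 5.60, 2.41 and 2.24.

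The spread between embryos of a genotype was smaller than the difference between null and WT for each of the 3 genes. Their choice by that difference in these same libraries favours this, so nothing is read from it. The highest null library was 1.24 times the lowest for Fndc7, 1.12 times for Alpk2 and 1.23 times for Anks1b. Among WT libraries the ratio was 1.82 for Fndc7, whose coefficient of variation of 35.4% compares with 26.4% from counting alone at such low counts. For Alpk2 and Anks1b it was 1.18 and 1.03, with coefficients of variation of 8.49% and 1.59%, both under the 10.1% and 12.7% that counting alone gives on average. In heterozygotes the ratios were 1.44, 1.43 and 1.6. The coefficient of variation in heterozygotes was 21.5% for Fndc7, 18.1% for Alpk2 and 24.1% for Anks1b, above the 14.2%, 7.3% and 14.2% from counting. In null embryos it was 11.7%, 5.85% and 10.9%, above 3.86%, 4.44% and 5.97%. Among null embryos, Fndc7 was highest in embryo 1, Alpk2 in embryo 2 and Anks1b in embryo 3.

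The levels of these genes were also described in heterozygotes, which carry a single cGT allele. Against WT, the log2 fold change was 1.81 ± 0.332 for Fndc7 (SE, 3.52-fold), 0.97 ± 0.173 for Alpk2 (SE, 1.96-fold) and -0.29 ± 0.232 for Anks1b (SE, 0.82-fold). By size of rise, Fndc7 ranked 7 of 17269 tested genes, Alpk2 120 and Anks1b 15473. None of the 3 was called in the main edgeR fit, where 9 genes were called higher (0.0521%) and 17 lower (0.0984%). DESeq2 called Fndc7 and Alpk2. So did edgeR with the replicate number as a block, without the filter on low counts or without WT 3. With a sex covariate edgeR called Fndc7 alone. The 3 heterozygote libraries lay above the 3 WT libraries for Fndc7 and Alpk2, as they did for 8.97% of tested genes. This comparison shares the WT libraries whose low values chose the genes, so no p is given and nothing is read from these counts. Markers of other tissue and of regions of the duct differed in the same comparison, and their part was not tested. The median log2 fold change between heterozygotes and WT was -2.91 for 6 mesenchyme markers, -3.56 for 3 tested endothelial markers, -1.84 for 4 erythroid markers and -2.72 for 3 macrophage markers. None of these was called, and all had an unadjusted p under 0.05, against 13.1% of all tested genes. It was -1.63 for 4 melanocyte markers, with 3 of 4 at an unadjusted p under 0.05. For 4 roof markers it was 0.22, with 4 of 4 above 0 and 4 at an unadjusted p under 0.05, and for 6 prosensory markers 0.30, with 6 of 6 above 0 and 4 at an unadjusted p under 0.05. None of these was called either. Of 7 tested neuron markers, 1 was called lower, against 0.0984% of all tested genes. It was Stmn2 (log2 fold change -1.42, edgeR adjusted p = 0.0107). For 4 cartilage markers the median was 0.53, with 2 at an unadjusted p under 0.05 and 0 called.

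Between null and heterozygote embryos the log2 fold changes were 3.78 ± 0.19 for Fndc7 (SE, 13.8-fold), 1.44 ± 0.159 for Alpk2 (SE, 2.72-fold) and 2.53 ± 0.22 for Anks1b (SE, 5.76-fold). All 3 were called, against 0.293% of 17067 tested genes (without heterozygote 1, Fndc7 alone), and all 3 had every null library above every heterozygote library, as did 9.06%. These counts again rest on the null libraries of the choice, and nothing is read from them.

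Expressed as a share of the distance from the WT to the null mean in CPM, the heterozygote mean lay at 5.32% for Fndc7, at 22.2% for Alpk2 and at -4.84% for Anks1b. On log2 CPM the shares were 31.4%, 39.5% and -13.7%. For the 158 genes called higher in null embryos, the median share in CPM was 26.3%, with quartiles of 14.5% and 38.5%. Fndc7 and Anks1b were below the lower quartile, and Alpk2 was inside the quartiles. Anks1b was 1 of 4 genes among the 158 whose heterozygote mean was under the WT mean. Fndc7 and Alpk2 had their 3 genotypes in full order with no overlap of libraries, as did 88 of the 158 genes and 0.899% of all 17797 genes.

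Mesenchyme and endothelial markers differed widely between embryos of 1 genotype, and their part in the levels of the 3 genes was not tested. In null 3, which held 1260 CPM of mesenchyme markers against 53.3 and 28.2 CPM in null 1 and null 2, Anks1b was at its highest null value (12 CPM), Alpk2 at its lowest (17.9 CPM) and Fndc7 between the other null libraries (24.4 CPM). WT 1 and WT 2 held 72.6 and 58.4 CPM of 4 endothelial markers, against 2.24 CPM in WT 3. Fndc7 was highest in WT 1 (0.741 CPM), while Alpk2 and Anks1b were highest in WT 3 (3.9 and 2.31 CPM). Without null 3, the log2 fold changes between null and WT were 5.63 for Fndc7, 2.46 for Alpk2 and 2.15 for Anks1b. Without WT 1 they were 5.92, 2.41 and 2.24, and without WT 2 they were 5.49, 2.36 and 2.23.

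Markers of regions of the duct itself differed between genotypes together with the 3 genes, and their part in the result was not tested. The 5 Kölliker's organ markers summed to 3080 to 3850 CPM in WT, 2940 to 3650 CPM in heterozygotes and 1580 to 1870 CPM in null embryos, and edgeR called 5 of 5 lower in null than WT, against 0.786% of all tested genes. The 5 were Fgf10, Tecta, Efhd1, Clic6 and Snap91, with log2 fold changes from -0.58 for Fgf10 to -1.97 for Efhd1. The 6 prosensory markers summed to 674 to 742, 830 to 859 and 771 to 1020 CPM, and 2 of 6 were called higher in null than WT, against 0.92% of all tested genes. The 2 called were the growth factor gene Fgf20, higher by 1.35 ± 0.203 on the log2 scale (SE, edgeR adjusted p = 0.0194), and Lfng, a modifier of Notch, higher by 1.44 ± 0.18 (SE, edgeR adjusted p = 0.00869). The authors had named these 2 and Jag1 as upregulated in the same libraries, so nothing is read from the count of 2. An unadjusted p under 0.05 was reached by 5 of the 6, and by 12.2% of all tested genes. The exception was Lgr5 (log2 fold change -0.02, edgeR adjusted p = 0.956). The 5 hair cell markers summed to 129 to 168, 113 to 139 and 136 to 208 CPM, and 1 of 5 was called higher in null than WT, Myo7a, the gene of a hair bundle myosin (17 ± 2.23 to 35.9 ± 7.44 CPM, edgeR adjusted p = 0.0257). Myo7a had also been listed by the authors as higher in these null libraries. Atoh1, the gene of the transcription factor that specifies hair cells, had a log2 fold change of -0.29 ± 0.234 (SE, edgeR adjusted p = 0.688). The 4 roof markers summed to 7520 to 8780, 9090 to 9510 and 10400 to 13800 CPM. None of the 4 was called, which is near the background, while 4 of 4 had an unadjusted p under 0.05 and a higher level in null embryos. The 4 outer sulcus markers summed to 1050 to 1220, 1110 to 1340 and 1280 to 1780 CPM, with 0 of 4 called and 2 of 4 at an unadjusted p under 0.05. Melanocyte markers, from cells outside the epithelium, summed to 60.9 to 139 CPM in WT, 28 to 47.1 CPM in heterozygotes and 18.6 to 50.4 CPM in null embryos. None of the 4 was called, against 0.786% of all tested genes called lower, and 3 of 4 had an unadjusted p under 0.05, led by the pigment gene Pmel (log2 fold change -2.14, edgeR adjusted p = 0.0551). The 4 cartilage markers had a median log2 fold change of 2.48 between null and WT, with 4 of 4 above 0. In edgeR 3 of them had an unadjusted p under 0.05 and 0 were called. Their sums were 4800, 4910 and 11400 CPM in null 1, null 2 and null 3.

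Alpk2 and Anks1b are best known from muscle and neurons, so markers of these cells were read in the same libraries. The 7 muscle markers summed to 10.9 to 12 CPM in WT and 13.3 to 18.7 CPM in null embryos. Myod1, Myog, Myl2 and Actc1 stayed under 0.3 CPM on average in each genotype, and none of the 3 muscle markers that could be tested was called (Tnnt2, cardiac troponin T, from 5.13 ± 0.762 to 9.95 ± 2.36 CPM, log2 fold change 0.95, edgeR adjusted p = 0.0989). The 9 neuron markers summed to 253 to 291 CPM in WT and 197 to 287 CPM in null embryos, nearly all of it Isl1, which otic epithelium also expresses. Neurod1 was at 0 in WT and at 0.0628 CPM in null embryos, and Elavl3 was at 0.732 and 0.712 CPM. Snap25 was at 0.559 ± 0.31 and 1.06 ± 0.156 CPM (log2 fold change 0.90, edgeR adjusted p = 0.455), and Nefl at 1.36 ± 1.3 and 2.93 ± 4.25 CPM (log2 fold change 1.08, edgeR adjusted p = 0.759). Of the 7 neuron markers tested, Stmn2 was called, and it was lower in null embryos (log2 fold change -2.96, edgeR adjusted p = 0.00343). The authors had also listed Stmn2 as lower in these null libraries. Over all tested genes, 0.92% were called higher and 0.786% lower, so that 0 of 3 muscle markers is near the background.

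**Figure D3:**
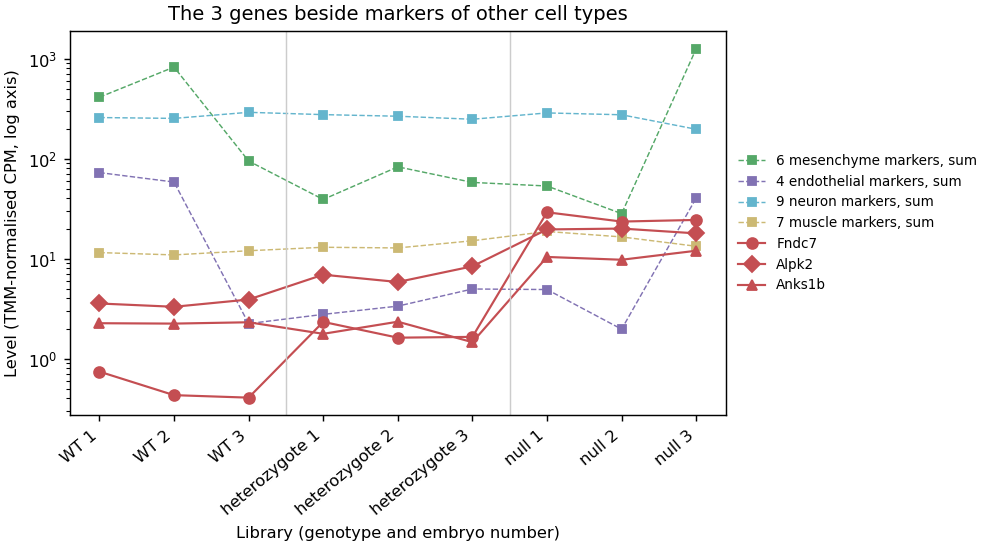
Level in each library (TMM-normalised CPM, log axis) of Fndc7, Alpk2 and Anks1b in red, and summed levels of 4 lists of markers of other cell types. Lines join the values of 1 gene or list and imply no order of embryos. The mesenchyme sum is 1260 CPM in null 3, where Anks1b is at 12 CPM, Alpk2 at 17.9 CPM and Fndc7 at 24.4 CPM, the highest, the lowest and the middle value of their null libraries.

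By their Xist and Y-linked counts, 1 of 3 WT, 1 of 3 heterozygote and 2 of 3 null embryos were male. The highest Fndc7 library of each genotype was that of embryo 1, a male in all 3 cases, and the other male, null 2, had the lowest Fndc7 level of the null libraries (23.5 CPM). A covariate for sex gave log2 fold changes between null and WT of 5.51 for Fndc7, 2.39 for Alpk2 and 2.28 for Anks1b.

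Of the 18 nearest protein-coding genes, 3 on each side of each gene, 17 could be tested and none was called in edgeR between null and WT, nor in DESeq2 or limma-voom. With 0.92% of all tested genes called higher and 0.786% lower, a count of 0 among 17 is near the background. Of the 17, 2 had an unadjusted p under 0.05, as did 12.2% of all tested genes. These 2 flank Fndc7 on either side. Stxbp3, a syntaxin-binding protein gene 13.2 kb away, had a log2 fold change of 0.25 ± 0.106 (SE, edgeR adjusted p = 0.393), and Prpf38b, a splicing factor gene 12.8 kb away, had 0.25 ± 0.0766 (SE, edgeR adjusted p = 0.227). Next to Alpk2, Nedd4l, a ubiquitin ligase gene 47.7 kb away, had -0.03 ± 0.105 (SE, edgeR adjusted p = 0.922). Malt1, which encodes a paracaspase of immune signalling and lies 36.9 kb away, had 0.05 ± 0.0986 (SE, edgeR adjusted p = 0.888). Next to Anks1b, Uhrf1bp1l had -0.07 ± 0.099 (SE, edgeR adjusted p = 0.82) and Apaf1, the apoptosome scaffold gene 16.0 kb away, had -0.25 ± 0.135 (SE, edgeR adjusted p = 0.527). The other neighbours ranged from -0.68 for Aknad1 to 0.28 for Oacyl, both under 2 CPM in every genotype. Between heterozygotes and WT, none of the 17 was called and 1 had an unadjusted p under 0.05, against 13.1% of all tested genes.

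**Figure D4:**
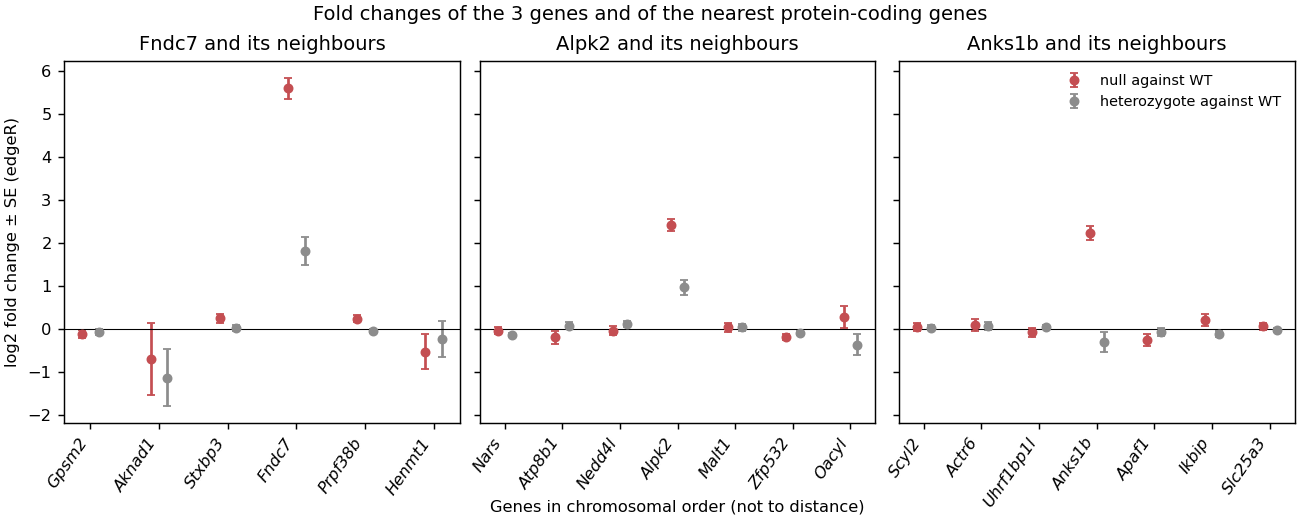
log2 fold change (edgeR, with its standard error as the bar) of Fndc7, Alpk2 and Anks1b and of the 3 tested protein-coding genes nearest to each side, or 2 where the third had no reads, in chromosomal order. Null against WT is in red and heterozygote against WT in grey, and the 3 genes stand at 5.60, 2.41 and 2.24 while the neighbours, none of them called, lie between -0.68 and 0.28 in null embryos.

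Counted genes that overlap Fndc7 and Anks1b on the chromosome held few reads. The pseudogene inside Fndc7 and the 7 small genes inside Anks1b had at most 2 counts in any library and share no exon bases with them. Alpk2 has antisense genes in the annotation that share 1158 and 286 exon bases with it. They have no rows in the counts, and the use of strand in counting is not given in the sources used here, so reads from them could have been counted as Alpk2.

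Lists of related genes held 43 in all, namely the Fndc family, the alpha-kinases, the proteins with ankyrin repeats and SAM domains, the partners of AIDA-1 and the readouts of β-catenin signalling. Between null and WT, 36 could be tested and edgeR called 0 of them, near the background of 0.92% higher and 0.786% lower, while 8 had an unadjusted p under 0.05 (12.2% of all tested genes did). limma-voom also called 0, and DESeq2 called 1, Grin2b, which was lower (log2 fold change -1.08, DESeq2 adjusted p = 0.0352). The median log2 fold change of the 36 was -0.08, and that of all tested genes 0.01.

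Among 8 tested genes of the Fndc family, 0 were called and the median was -0.07. Fndc3a, the highest of them per kb in WT at 28.9 CPM per kb, had a log2 fold change of -0.06 ± 0.109 (SE, edgeR adjusted p = 0.86). Fndc5, the source of the secreted peptide irisin, was at 3.53 ± 0.445 CPM in WT and 3.59 ± 0.804 CPM (SD, n = 3) in null embryos. Fndc1 had the widest difference of the family, with 4.35 ± 0.65 CPM in WT and 1.62 ± 1.49 CPM (SD, n = 3) in null embryos (log2 fold change -1.45, edgeR adjusted p = 0.463).

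Of the 4 alpha-kinases tested beside Alpk2, 0 were called. Trpm7, a channel with a kinase domain, was the highest per kb at 11.5 CPM per kb in WT and had a log2 fold change of -0.05 ± 0.142 (SE, edgeR adjusted p = 0.911). Alpk1 was at 6.84 ± 0.788 CPM in WT and 7 ± 0.754 CPM (SD, n = 3) in null embryos, and Alpk3 was at 1.08 ± 0.121 and 1.19 ± 0.384 CPM (SD, n = 3). Eef2k, the kinase of elongation factor eEF2, had a log2 fold change of -0.34 ± 0.122 (SE, edgeR adjusted p = 0.299). The readouts of β-catenin signalling, which ALPK2 has been reported to restrain in heart, had log2 fold changes under 0 in 7 of 7 tested genes, and 0 were called, near the background of 0.786% called lower. An unadjusted p under 0.05 was reached by 3 of the 7, against 12.2% of all tested genes. The median was -0.40, against 0.01 over all tested genes, and the lowest adjusted p was that of Rnf43, a ubiquitin ligase gene induced by this pathway (log2 fold change -0.46, standard error 0.0887, edgeR adjusted p = 0.0505). Between heterozygotes and WT, 0 of the 7 readouts were above 0 and 4 had an unadjusted p under 0.05, against 13.1% of all tested genes. Between null and heterozygotes, 4 of 7 were above 0, with a median of 0.02. None was called in either comparison.

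Of the 5 tested genes that share ankyrin repeats and SAM domains with Anks1b, 0 were called. Caskin2, the highest per kb at 25.6 CPM per kb in WT, had a log2 fold change of 0.06 ± 0.0673 (SE, edgeR adjusted p = 0.79), and Anks1, the closest relative of Anks1b, had -0.20 ± 0.0804 (SE, edgeR adjusted p = 0.364). Of 12 tested partners of the AIDA-1 protein, 0 were called. App, the amyloid precursor to whose tail AIDA-1 binds, was the highest at 150 CPM per kb in WT and had a log2 fold change of 0.39 ± 0.104 (SE, edgeR adjusted p = 0.153). Dlg4, which encodes the postsynaptic scaffold PSD-95, had -0.02 ± 0.0776 (SE, edgeR adjusted p = 0.955). The glutamate receptor subunit gene Grin1 was at 0.0244 CPM in WT and 0.171 CPM in null embryos, at or near the floor, and Grin2b was at 6.19 ± 1.21 and 2.96 ± 1.24 CPM (SD, n = 3). In heterozygotes, 38 of the 43 related genes were tested against WT and edgeR called 0, with 9 at an unadjusted p under 0.05 (13.1% of all tested genes).

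The genes whose pattern over the 9 libraries came closest to each of the 3 were found by the root mean square difference of log2 CPM, centred on each gene's mean. This measure grows with a gene's own range over the 9 libraries, which was 5.92 on the log2 scale for Fndc7, 2.58 for Alpk2 and 2.98 for Anks1b. The closeness of the matches is therefore not compared between the 3. The gene closest to Fndc7 was Corin, which encodes a serine protease that activates natriuretic peptides, at a difference of 0.621, with means of 0.360, 1.11 and 7.66 CPM in WT, heterozygote and null embryos. Fgf14, a regulator of sodium channels, differed by 0.936 with means of 0.415, 1.23 and 4.76 CPM, and Rbpjl, a relative of the Notch effector RBPJ, by 1.04 with means of 0.831, 0.957 and 7.62 CPM. BC106175 (0.922) and Gm16758 (1.07) completed the 5 and stayed under 1 CPM in null embryos.

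Of the genes closest to Alpk2, Ms4a2, the gene for the β chain of the IgE receptor, differed by 0.149 and had means of 0.279, 0.676 and 1.81 CPM. Chrdl1, which encodes an antagonist of bone morphogenetic proteins, differed by 0.244 at a higher level, with means of 17.5, 24.1 and 70.1 CPM. Gm14102 (0.232), 2310065F04Rik (0.322) and Fam163a (0.326) were the others. For Anks1b the nearest were Mdga1, which encodes a membrane protein that binds neuroligins (0.345, with means of 4.01, 3.97 and 17.3 CPM), and Chst5, a carbohydrate sulfotransferase gene (0.366, with means of 6.37, 8.12 and 40.8 CPM). Gm45889 (0.458), S100b (0.465) and Gm16758 (0.467) followed. Alpk2 and Anks1b differed by 0.626 from each other, and Fndc7 by 1.33 from Alpk2 and 1.38 from Anks1b. The wider range of Fndc7 raises its values on this measure.

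**Figure D5:**
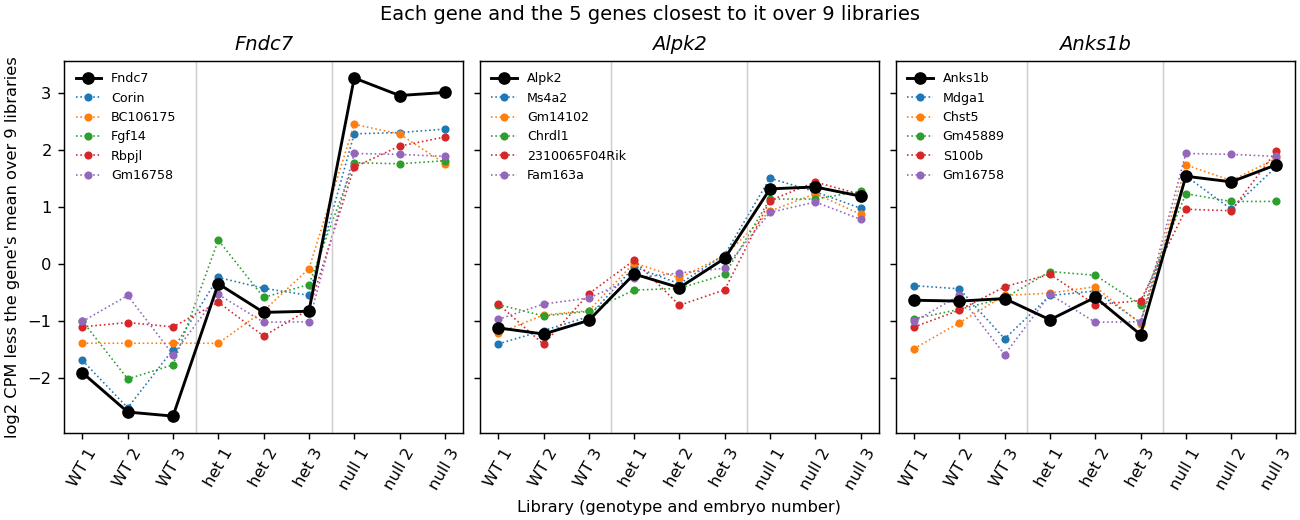
log2 CPM of Fndc7, Alpk2 and Anks1b (black) and of the 5 genes closest to each (coloured) in 9 libraries, less each gene's own mean. Lines join the values of 1 gene. The null libraries are highest throughout, and heterozygotes sit between WT and null for Alpk2 and 4 of its 5 matches, the exception being 2310065F04Rik. The prior count of 2 compresses genes with few reads, such as BC106175.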

How the data were processed

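The authors prepared TruSeq mRNA libraries from both cochlear ducts of single E14.5 embryos, sequenced single reads, aligned them with STAR to mm10 and used DESeq2 to compare genotypes. The submitters' processing notes also name cutadapt 1.13 and HTSeq 0.6.1p1, and the methods name Cufflinks. The deposited values are raw counts per Ensembl gene, without normalization. The annotation release and strand setting are not given in the sources used here.

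Libraries were grouped by labelled genotype. The methods describe 3 embryos per genotype as littermates, and do not say whether embryos of 1 number share a litter. Each pair of genotypes was fitted on its own 6 libraries with edgeR 4.0.16 in R 4.3.3 (TMM, filterByExpr with a minimum count of 10, quasi-likelihood test, Benjamini-Hochberg adjustment over all tested genes). Genes were called at an adjusted p under 0.05 with a log2 fold change beyond 0.5 in either direction. CPM values were TMM-normalized over the 9 libraries, and log2 CPM used a prior count of 2. GENCODE M21 (mm10) named 54165 of 54232 genes and gave positions and exon lengths. DESeq2 1.42.0 and limma 3.58.1 (limma-voom), RLE or no normalization, other filters, 1 fit of 9 libraries, the replicate number as a block, a sex covariate and leaving out each embryo were the alternatives. On simulated counts for null against WT, 181 of 197 changed genes were recovered with 13 false calls among 16852 genes. No 2 libraries of a genotype held the same counts within sampling noise (the lowest chi-square, divided by the number of genes, was 5.57).

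The 3 genes and all lists were chosen with earlier results of these data known. Named genes are the 3 genes, Prdm16, their neighbours, members of the related gene lists that passed or were highest per kb, and the 5 closest genes by pattern. Fndc1, Fndc5, Alpk1, Alpk3, Eef2k, Anks1, Dlg4, Grin1, Grin2b and the marker genes given with values were picked from the lists after their values were seen.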

Additional observations from a re-analysis of the deposited data

How the results depend on the processing

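The log2 fold changes of Fndc7, Alpk2 and Anks1b in each of the 3 comparisons kept their sign under every alternative that could be fitted. With all embryos kept, the differences between null and WT were 5.51 to 5.62, 2.39 to 2.42 and 2.22 to 2.28. Leaving out 1 embryo gave 5.44 to 5.92 for Fndc7, the highest without WT 1. The replicate number as a block gave 5.62, 2.41 and 2.23. Same-numbered embryos did not vary together (correlations of -0.284 to 0.202), and the block moved the genes called higher and lower between null and WT from 158 and 135 to 65 and 68. DESeq2 called 329 and 280, no filter on low counts 267 and 209, and all 9 libraries in one fit 260 and 208. Without 1 embryo there were 31 to 214 and 37 to 232, fewest without WT 2 and most without null 3. Between heterozygotes and WT, the 9 and 17 calls became 54 and 243 with DESeq2, 32 and 165 with the block, 109 and 575 without the filter, 0 and 0 with all 9 libraries, and 0 to 47 and 0 to 458 without 1 embryo, fewest without heterozygote 2 or 3 and most without WT 3. Between null and heterozygotes, the 50 and 55 calls became 195 and 166 with DESeq2, 227 and 139 without the filter, 79 and 85 with all 9 libraries, 22 and 30 with the block, and 5 to 81 and 6 to 101 without 1 embryo, fewest higher without heterozygote 1, fewest lower without heterozygote 3 and most without null 3. Of the 3 genes, which their own values chose, 3 were called between null and WT under every alternative. Between heterozygotes and WT, Fndc7 and Alpk2 were called with DESeq2, with the block, without the filter and without WT 3, Fndc7 alone with the sex covariate, and none under the others. Between null and heterozygotes, 3 were called except without heterozygote 1, where Fndc7 alone was. A minimum mean count of 50 removed Fndc7 from the heterozygote fit.

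Of the related genes, DESeq2 called 1 lower between null and WT (Grin2b). Between heterozygotes and WT, 4 were called lower without the filter (Lef1, Grin2a, Fndc1 and Sp5), 1 with DESeq2 (Fndc1), 1 with the block (Lef1) and 0 to 1 without 1 embryo (Lef1, without WT 3). The causes were not tested. With Pearson correlation as the measure of likeness, 2 of the 5 genes closest to Fndc7, 3 of those closest to Alpk2 and 0 of those closest to Anks1b stayed among the 5. The counts of 11 to 20 for Fndc7 in WT limit the precision of its fold change.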
